A study of Mus musculus with 13 samples.

Results

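Chromatin accessibility was compared between 2 libraries of repopulated mouse microglia from animals given lipopolysaccharide (LPS) for the second time and 3 libraries from animals given it for the first time. The 5 libraries, of 13 in the series, were chosen by their labels, and all peaks of the shared peak set entered the comparison. The LBL group received LPS, then the CSF1R inhibitor BLZ945, then LPS again. The PBL group received PBS, then BLZ945, then LPS. All animals were C57BL/6J males. The first injection was given at 10 weeks of age, with LPS at 1 mg/kg. BLZ945, or its vehicle in the groups without depletion, followed 1 week later at 169 mg/kg per day for 5 days, and the other injection came 5 weeks after the first. Microglia were collected 3 hours after it, at 15 weeks. The other groups are PBP (PBS, BLZ945, PBS) and the vehicle groups PP (PBS, PBS), PL (PBS, LPS) and LL (LPS, LPS), with 2 libraries each. A library held cells of 2 pooled animals, 40000 cells from each, sorted as CD11b high, CD45 intermediate and Ly6C negative. A replicate is thus a pool, and p-values measure the spread between pools. BLZ945 reaches every cell that depends on CSF1R, and which cells survived or repopulated was not labelled. The comparison asks whether an LPS injection given before the depletion leaves a mark on how the later microglia open their chromatin after LPS.

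LPS, from the outer membrane of Gram-negative bacteria, is sensed by TLR4 with its co-receptor CD14. The signal runs to NF-kB and AP-1, which open and activate enhancers and promoters of cytokine genes, and it also induces its own brakes, such as the deubiquitinase A20 and MAP kinase phosphatases. Macrophages that have met LPS often answer later LPS less at some genes and fully or more at others, known as tolerance and training. Microglia also keep a homeostatic programme, with genes such as P2ry12, Siglech and Mertk, that depends on TGF-beta and the regulator SALL1 and that recedes under inflammation. Inhibition of CSF1R removes most microglia, and the survivors then refill the brain.

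Accessibility was measured by ATAC-seq, where a transposase cuts open chromatin. The values are counts per peak, scaled by library size and TMM factor to CPM so that libraries of different depth can be compared. CPM of a locus were scaled over loci and are not on the same scale as CPM of a peak. In the text, log2 fold changes are LBL over PBL from edgeR's quasi-likelihood test, ± its standard error (SE), and a peak or locus was called at a Benjamini-Hochberg adjusted p under 0.05. The 5 RefSeq promoter windows below (build GRCm38.p6, which is mm10) each overlap a called peak. They are examples from promoters only, while most called peaks lay outside promoters. The promoters of a MAF transcription factor, a cytokine and an NF-kB subunit were lower in LBL. Those of a microglial crystallin gene and a lipid receptor were higher. Each window holds 300 bases on the gene's strand, with the start site after base 250, and capitals mark 1 motif. In Maff (chr15:79347270-79347569, plus strand) the capitals are a cyclic AMP response element, TGACGTCA. In Tnf (chr17:35201958-35202257, minus strand) and Crybb1 (chr5:112255570-112255869, plus strand) they are TATAAA. In Nfkb2 (chr19:46304487-46304786, plus strand) they are an NF-kB match, GGGNNTTTCC. In Trem2 (chr17:48346151-48346450, plus strand) they are an AP-1 match, TGANTCA. Tnf, Nfkb2 and Trem2 were picked for display after their values were seen.
Maff promoter: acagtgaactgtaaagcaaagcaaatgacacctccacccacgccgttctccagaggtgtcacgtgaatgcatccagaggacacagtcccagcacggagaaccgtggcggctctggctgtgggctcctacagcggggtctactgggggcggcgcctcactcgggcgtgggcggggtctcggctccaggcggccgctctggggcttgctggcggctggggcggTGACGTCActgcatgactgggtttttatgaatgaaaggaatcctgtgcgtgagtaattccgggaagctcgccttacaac
Tnf promoter: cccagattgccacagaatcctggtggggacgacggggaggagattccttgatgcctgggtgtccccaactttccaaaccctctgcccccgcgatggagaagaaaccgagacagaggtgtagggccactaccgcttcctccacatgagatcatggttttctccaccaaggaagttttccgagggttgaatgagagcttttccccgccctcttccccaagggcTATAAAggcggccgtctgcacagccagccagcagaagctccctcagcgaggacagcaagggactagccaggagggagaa
Nfkb2 promoter: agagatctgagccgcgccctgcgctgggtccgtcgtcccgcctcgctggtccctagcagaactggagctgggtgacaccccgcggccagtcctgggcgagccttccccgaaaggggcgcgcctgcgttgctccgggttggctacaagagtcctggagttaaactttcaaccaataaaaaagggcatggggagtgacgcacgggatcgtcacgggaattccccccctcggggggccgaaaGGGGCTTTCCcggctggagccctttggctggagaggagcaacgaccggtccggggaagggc
Crybb1 promoter: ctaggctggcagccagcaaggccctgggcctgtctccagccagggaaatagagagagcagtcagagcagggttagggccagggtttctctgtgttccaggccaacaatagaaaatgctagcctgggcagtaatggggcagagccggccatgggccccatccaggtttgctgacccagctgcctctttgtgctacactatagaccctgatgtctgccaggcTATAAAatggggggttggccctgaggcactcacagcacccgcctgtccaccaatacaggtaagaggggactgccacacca
Trem2 promoter: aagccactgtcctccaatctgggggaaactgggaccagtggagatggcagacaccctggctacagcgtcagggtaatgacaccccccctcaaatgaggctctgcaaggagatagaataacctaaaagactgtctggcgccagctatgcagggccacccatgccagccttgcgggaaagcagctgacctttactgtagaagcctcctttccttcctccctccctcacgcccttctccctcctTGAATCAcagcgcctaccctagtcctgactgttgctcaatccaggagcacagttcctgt

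The LBL libraries held 1547545 and 1985467 rounded counts in peaks and the PBL libraries between 1444372 and 2772688, against 927840 to 2772688 over all 13. Both groups were sorted on the same instrument (XDP). LBL was isolated on 1 day and PBL on another, so the day and the group cannot be told apart in any result here. PBP was sorted on another instrument (Astrios) and another day, so each level set beside PBP below differs in sorter and day as well. Promoter peaks took 56.1% and 56.5% of the counts in LBL and 57.0% to 59.3% in PBL. Counts of LBL 1_2 and LBL 3_4 agreed within sampling noise (chi-square per degree of freedom 0.978, p = 0.998 over 35034 peaks), while the PBL pairs gave 1.11 to 1.15 and the pairs of the other groups 1.01 (PP), 1.03 (LL), 1.09 (PBP) and 1.84 (PL). The labels give the LBL libraries as separate pools and their totals differ, so they were kept as 2, and counts are given below also with them summed as 1 library. PBL 3_4 and PBL 4_5 share animal number 4 in their names, and summing them left 583 called peaks. Along the first principal component of the 5 libraries, with 42.3% of their variance, PBL lay at -36.8, -19.0 and -16.9 and LBL at 30.1 and 42.7. In bulk libraries, fewer cells with an open site and less opening in each cell cannot be told apart.

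Repopulated microglia whose host had met LPS before differed from first-time responders at a small set of sites in both directions. Of 37516 tested peaks, 713 (1.9%) were called, 365 higher in LBL (0.973%) and 348 lower (0.928%). The lower sites included promoter peaks of Tnfaip3, Maff, Dusp2 and Tnf, and the higher sites included those of Crybb1 and Trem2, while most called sites lay at genes outside the lists described below. The calls at the Dusp2, Tnf and Trem2 promoters did not hold in every fit that left out 1 LBL or PBL library. The called changes were moderate, with a median size of 0.94 on the log2 scale among higher peaks and 1.05 among lower ones. A change of more than 2-fold was fitted for 149 of the higher and 189 of the lower peaks. The libraries of the groups did not overlap in CPM at any of the 365 higher and at 347 of the 348 lower peaks, against 32.6% of all tested peaks. With peaks summed into gene loci (all peaks whose nearest start site is that of the gene, within 50 kb), 156 of 13729 loci (1.14%) were called, 91 higher (0.663%) and 65 lower (0.473%).

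**Figure D1:**
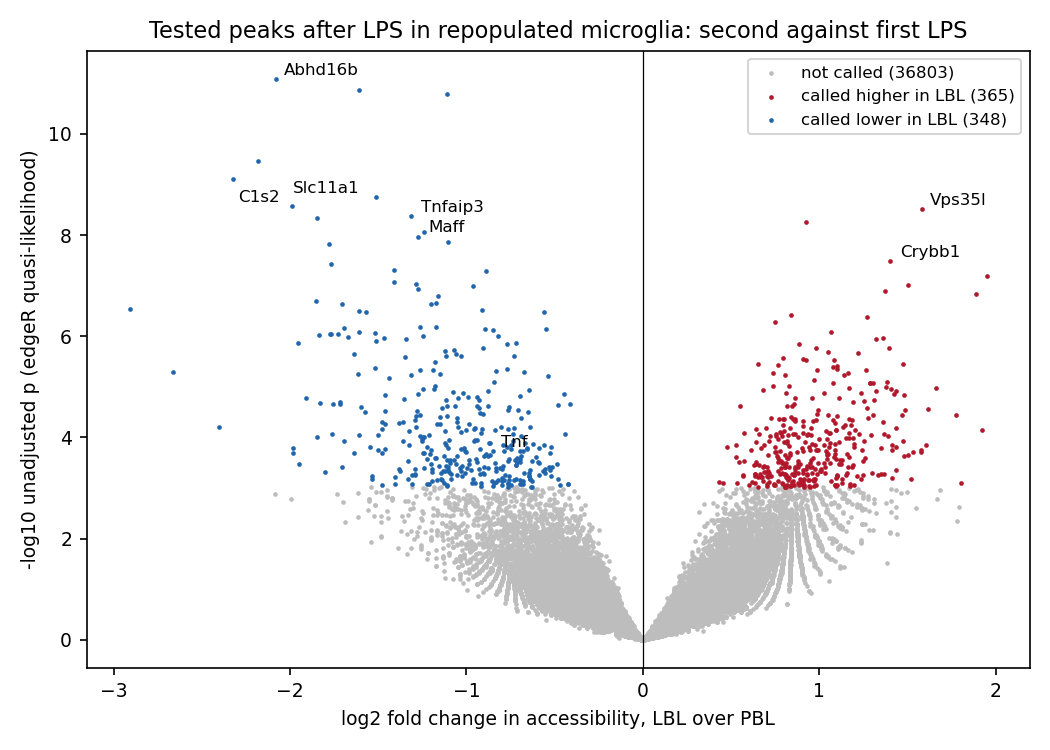
Log2 fold change in accessibility of LBL over PBL (x) against the -log10 unadjusted p of edgeR's quasi-likelihood test (y), 1 point per tested peak. The 365 peaks called higher in LBL are red, the 348 called lower are blue, and the named lower peaks at Abhd16b, Slc11a1 and Tnfaip3 lie near the top.

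How many peaks were called rested on the LBL pair. Without LBL 1_2 there were 88 calls and without LBL 3_4 there were 94, in fits that assume the lone LBL library varies like the other groups. Without PBL 4_5 there were 334 and without PBL 3_4 there were 396. With the LBL libraries summed as 1 there were 445. DESeq2 called 17 peaks and limma-trend 263, and all 17 of DESeq2 and 261 of limma-trend were among the 713. The split by direction depended on the scaling: with TMM factors from peaks outside promoters it was 222 higher and 422 lower for peaks and 21 higher and 111 lower for loci, and with cyclic loess and limma-trend it was 97 and 172 for peaks. Called without each LBL and PBL library in turn were 19 peaks, 7 higher and 12 lower. The 12 are at or nearest to Abhd16b, Irf2bpl, Gm17746, Crlf3, Rab11fip4os1, Slc11a1, C1s2, Tnfaip3, Zmynd15, 3425401B19Rik, Maff and Tmbim1, and the 7 at or nearest to Vps35l, Kitl, Crybb1, Sall1, Nrp2, 9130015L21Rik and Pla2g15.

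The higher and lower sites lay in different parts of the genome. Promoter peaks made up 36.8% of all tested peaks, but 8.49% of the higher (31 of 365, 95% exact interval 5.84% to 11.8%) and 25.3% of the lower peaks (88 of 348, 20.8% to 30.2%). Introns held 49.0% of the higher peaks and 29.0% of the lower ones, against 31.3% of all. Among the higher peaks, 31.0% had their nearest start site more than 50 kb away, against 9.48% of the lower and 10.2% of all peaks. The median distance to a start site was 14650 bp for higher, 7061 bp for lower and 4614.5 bp for all peaks. Promoter peaks as a whole had a median log2 fold change of -0.06 and intron peaks of 0.07, beside the lower share of promoter counts in LBL, and the part of that shift in these shares was not tested. Without LBL 3_4 the promoter share of the higher calls reached 15.2%.

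**Figure D2:**
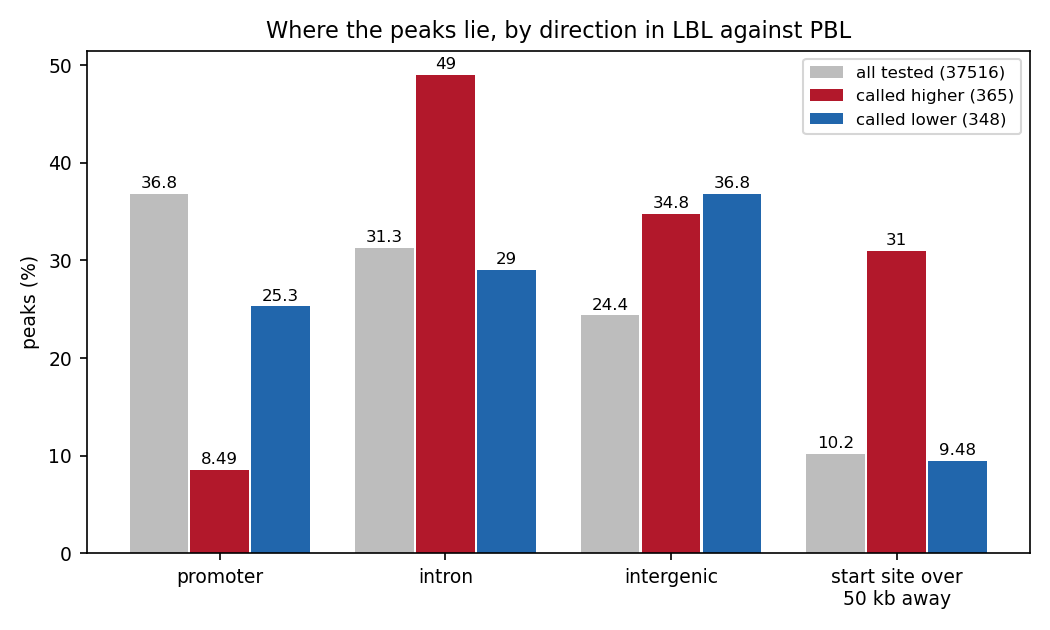
Percent of peaks (y) in promoters, introns, intergenic sequence and more than 50 kb from a start site (x) for all 37516 tested peaks (grey), the 365 higher (red) and the 348 lower peaks (blue). Higher peaks have the smallest promoter share, 8.49%, and the largest distal share, 31.0%.

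The NF-kB letters were counted more often in windows at lower peaks than over all windows, a count without a test. RefSeq windows overlapped 8423 tested peaks by at least 150 bases, among them 39 lower and 7 higher called peaks. GGGNNTTTCC, on either strand, was present in 7 of the 39 windows (17.9%), against 1.78% of the windows at all tested peaks and 1.63% of all 32851 windows. Those 7 windows belong to Nfkb2, Edc3, Hpn, Zfp456, Zfp429, Gm39227 beside Mt2, and LOC115488765 in the peak nearest to Atp6v1e2. Zfp456 and Zfp429 lie close together on chromosome 13, with the match starting at bases 225 and 223 of their windows, so they may not be separate occurrences. TGANTCA was present in 6 of 39 (15.4%), against 4.51% at all tested peaks and 7.81% of all windows, with Fas, Zeb2 and Cst7 among the 6. TGACGTCA was present in 3 of 39 (7.69%, against 3.74% and 1.79%), among them Maff and Dusp1. The PU.1 letters GAGGAAGT were present in 3 (7.69%, against 3.73% and 3.20%) and the interferon response letters GAAANNGAAA in none, against 3.05% and 3.44%. TATAAA was present in 4 (10.3%, against 5.94% and 13.6%). In the 7 windows at higher peaks, TGANTCA and TATAAA were each present in 1 (14.3%) and the other letters in none. These are counts of letters in short windows, and peaks outside promoters, where most called sites lie, were not scanned.

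The lower sites with the smallest p lay both at inflammation genes and at genes less tied to it. Tnfaip3 encodes A20, the deubiquitinase that limits NF-kB signalling. Its promoter peak (chr10:19009170-19009739) stood at 32.3, 48.1 and 51.3 CPM in PBL and at 14.3 and 21.3 in LBL. LBL thus lay near the unchallenged PBP libraries, at 14.6 and 16.6, and below every PBL library. Its log2 fold change was -1.32 ± 0.21 (SE, adjusted p = 1.7e-05, edgeR). Slc11a1 encodes the phagosomal metal transporter NRAMP1. Its promoter peak (chr1:74381455-74382023) had 26.7, 36.1 and 35.2 CPM in PBL and 11.7 in each LBL library, with 12.1 and 12.8 in PBP. The change was -1.51 ± 0.24 (adjusted p = 1.12e-05, edgeR).

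Maff was the locus with the smallest p. It encodes a small MAF protein, a partner of bZIP factors. Its 4 peaks summed to 122 to 139 CPM in PBL and to 64.1 and 65.7 in LBL (log2 fold change -1.02 ± 0.13, adjusted p = 9.19e-08, edgeR). Of these peaks 3 were called lower. The promoter peak around the window printed above (chr15:79347113-79347729) stood at 45, 44.4 and 40.3 CPM in PBL and 18.2 and 17.3 in LBL, and the next promoter peak (chr15:79347820-79348491) at 33.8 to 40.7 against 14.9 and 21.8. The third called peak, in the 5' UTR (chr15:79356983-79357297), stood at 13.9 to 19.7 against 7.80 and 2.03. The LBL libraries were the lowest of all 13 at the first of these peaks, under PBP at 21.9 and 30.5.

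**Figure D3:**
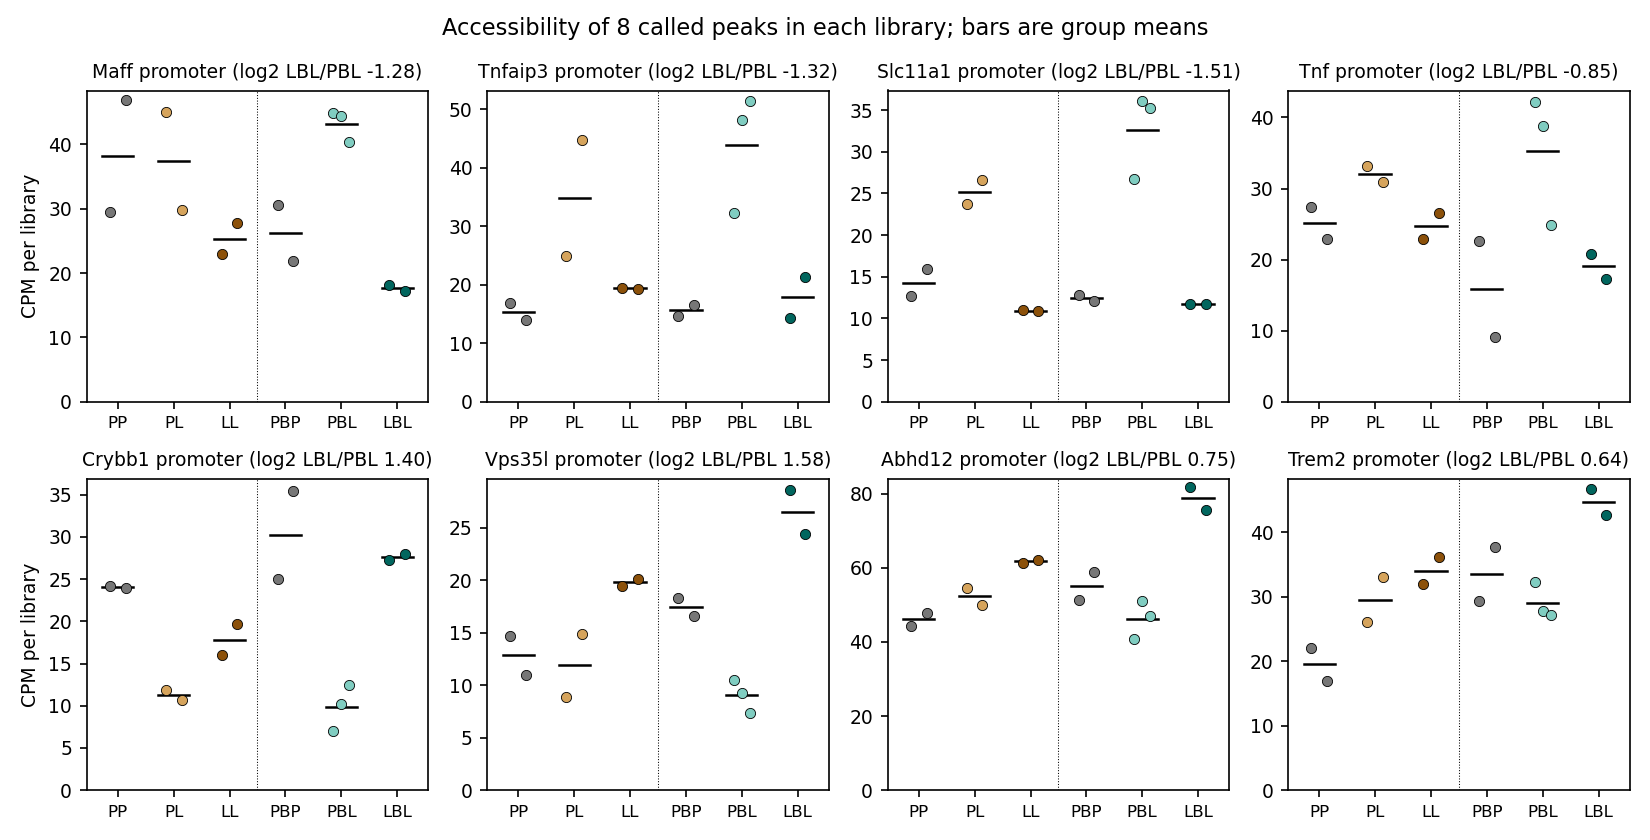
CPM (y) in each library of the 6 groups (x) for 8 called peaks, with group means as bars and a dotted line between the vehicle and BLZ945 groups. In the upper row (Maff, Tnfaip3, Slc11a1, Tnf) LBL lies below PBL, and in the lower row (Crybb1, Vps35l, Abhd12, Trem2) it lies above.

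Other sites with the smallest p among lower peaks are marked by the nearest gene. A peak 9203 bp upstream of Abhd16b, of the abhydrolase family, had 23.2, 29.1 and 32.6 CPM in PBL and 5.2 and 8.12 in LBL (-2.08 ± 0.28, adjusted p = 2.06e-07, edgeR). A peak in an intron near Rab11fip4os1, an antisense RNA gene, fell by 2.32 on the log2 scale, from 14 to 19.4 CPM down to 2.60 and 4.06. A peak 975 bp upstream of C1s2, a complement protease gene, fell from 18.5 to 22.4 CPM to 3.90 and 6.09, and one near Zmynd15 from 19.7 to 24.1 CPM to 5.2 and 7.11. The remaining ones were a peak 14 kb from Crlf3, a cytokine receptor-like factor gene (-2.18 ± 0.33), a peak in 3425401B19Rik (-1.24 ± 0.20), and intergenic peaks at chr12:86819090-86819595 (-1.61 ± 0.22) and chr12:25213693-25214591 (-1.11 ± 0.15). These 10 lower peaks were called in each of the 22 alternative analyses of that peak that gave a value.

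Peaks of the gene lists below were named after their values were seen, as those called. Sensors of LPS had no called locus. Of 28 tested loci of the TLR4 receptor and signalling list none was called, with a median log2 fold change of -0.02, beside -0.01 over all 13729 loci. In fits on LBL and PBL alone, on the XDP libraries or without PL, 1 of the 28 was called lower. Of their 95 peaks 2 were called lower, a share of 2.11% beside 0.935% of all peaks within 50 kb of a gene. A peak 3421 bp upstream of Tlr2, the receptor of bacterial lipoproteins, had 23.9, 29.6 and 30.1 CPM in PBL and 14.3 and 13.2 in LBL (-1.05 ± 0.24, adjusted p = 0.00429, edgeR). The promoter of Cd14, the co-receptor that hands LPS to TLR4, had 55.0 to 72.2 CPM in PBL and 40.3 and 40.6 in LBL (-0.60 ± 0.16, adjusted p = 0.0256, edgeR). In both, LBL lay below PBL and above PBP (6.79 and 7.93 at Tlr2, 34.7 and 34.8 at Cd14). The Cd14 call was lost in 8 of 22 alternatives and the Tlr2 call in 5, and without either LBL library no peak of the list was called.

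Several single peaks of NF-kB subunit and inhibitor genes were lower. Of their 92 peaks 7 (7.61%) were called lower and none higher, against 0.935% lower over all peaks within 50 kb of a gene. Of 20 loci 1, Birc3, was called lower, against 0.473% of all loci, a call lost in 7 of 24 alternatives, among them those without either LBL library. The list's median was -0.10. Birc3 encodes cIAP2, a ubiquitin ligase of TNF receptor signalling and an NF-kB target. Its promoter peak (chr9:7872607-7873336) stood at 66.7, 98.1 and 106 CPM in PBL and 58.5 and 54.8 in LBL. PBL 1_2 was thus closer to LBL than to the other PBL libraries, and the log2 fold change was -0.72 ± 0.14 (adjusted p = 0.000795, edgeR), a call lost in 6 of 22 alternatives. The promoter of Nfkb1, the p105 and p50 subunit, stood at 55.5 to 68.9 CPM in PBL and 32.5 and 37.6 in LBL (-0.85 ± 0.17, adjusted p = 0.000605, edgeR). PBP, at 42.2 and 58.6, overlapped PBL there. The other called peaks were an intron peak of Nfkb1 (-1.48 ± 0.35), a peak 43.6 kb from the Tnfaip3 start site (-1.18 ± 0.31), and the promoters of Nfkbiz (-0.48 ± 0.14) and Nfkb2 (-0.47 ± 0.14). Of 22 alternatives, the distal Tnfaip3 call was lost in 10, the Nfkbiz call in 12 and the Nfkb2 call in 14. Without LBL 1_2 or LBL 3_4, 2 of the list's peaks were called in each case.

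Cytokine genes were called lower in part. Of 33 tested loci of the cytokine and effector list 4 were called lower (Ccrl2, Nos2, Csf1 and Il12b), against 0.473% of all loci, and none higher, with a median of -0.13, and 24 of 33 were below 0 against 51.4% of all loci. Of their 100 peaks 6 (6%) were called lower and none higher, against 0.935% and 0.748% of all peaks within 50 kb of a gene. The Tnf promoter peak (chr17:35201664-35202282), over the window printed above, stood at 42.1, 38.9 and 24.9 CPM in PBL and 20.8 and 17.3 in LBL. The groups did not overlap, but PBL 4_5 lay nearer to LBL than to the other PBL libraries (-0.85 ± 0.22, adjusted p = 0.0186, edgeR). The call at Tnf was lost without PBL 1_2, PBL 3_4 or either LBL library and with DESeq2 or limma-trend, and the sum of both Tnf peaks gave an adjusted p of 0.0544. Il12b encodes a subunit of IL-12 and IL-23. A peak 9470 bp upstream of it had 20.4 to 34.2 CPM in PBL and 10.4 and 15.2 in LBL (-1.18 ± 0.24, adjusted p = 0.00148, edgeR). Peaks near Csf1, a ligand of CSF1R (-1.02 ± 0.23), Il1a (-0.98 ± 0.24), Ccrl2, an atypical chemokine receptor (-0.95 ± 0.23), and Nos2, the inducible nitric oxide synthase (-1.85 ± 0.46), were called as well. Without LBL 1_2 none of the list's loci was called, and without LBL 3_4 or PBL 3_4 there was 1.

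Other cytokine loci chosen by name gave no call in edgeR's test. Il1b had 154 to 190 CPM in PBL and 150 and 160 in LBL (log2 fold change -0.09 ± 0.10). Il6 had 95.9 to 108 CPM in PBL and 99.6 and 100.3 in LBL (-0.01 ± 0.12). Ccl2 had a log2 fold change of 0.03 ± 0.10, Ccl3 of -0.20 ± 0.12 and Ccl4 of -0.11 ± 0.14. The kinase gene Map3k8 stood at 295 to 330 CPM in PBL and 330 and 354 in LBL, far above its 129 and 136 in PBP, with 0.12 ± 0.08 between LBL and PBL. Nfkbia, the inhibitor IkB-alpha (0.05 ± 0.08), Acod1, the itaconate synthase (0.09 ± 0.19), and the histone demethylase Kdm6b (-0.09 ± 0.08) gave no call either. A missed call does not show that these loci act alike in both groups.

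Feedback genes were led by Dusp2. This gene encodes a nuclear phosphatase that switches off MAP kinases. Its locus had 115, 118 and 123 CPM in PBL and 64.3 and 66.2 in LBL, as in PBP with 66.1 and 69.7 (-0.86 ± 0.12, adjusted p = 1.68e-06, edgeR). Of its 3 peaks the promoter (-1.03 ± 0.21) and a peak 12.8 kb upstream (-1.78 ± 0.30) were called. Over the list 2 of 30 loci were called lower, Dusp2 and Dusp1, the glucocorticoid-inducible phosphatase (-0.31, adjusted p = 0.0405, edgeR), against 0.473% of all loci, and the median was -0.05. Dusp2 was called in all 24 alternatives and Dusp1 was lost in 15. In fits on LBL and PBL alone, on the XDP libraries or without PL, 3 loci of the list were called lower and 3 higher. Without either LBL library and with DESeq2, 1 locus was called. An intron peak of Zc3h12a, the RNase that cuts cytokine mRNAs, stood at 30.9 to 37.4 CPM in PBL and 18.2 and 13.2 in LBL (-1.20 ± 0.22). Socs3, a brake on JAK-STAT signalling, had 421 to 434 CPM in PBL and 459 and 479 in LBL, with no call (0.14 ± 0.08).

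AP-1 and immediate early genes moved at several members. Of 27 loci 3 were called lower (Maff, Fosb and Ier2), against 0.473% of all loci, and none higher. Of 124 peaks 8 (6.45%) were called lower and 1 (0.806%) higher, against 0.935% and 0.748% of all peaks within 50 kb of a gene. The median was -0.12. The Fosb locus, a FOS family subunit of AP-1, stood at 189 to 203 CPM in PBL and 159 and 131 in LBL (-0.46 ± 0.10, adjusted p = 0.00412, edgeR), and Ier2 at 190 to 235 against 156 and 166 (-0.40 ± 0.10, adjusted p = 0.0162, edgeR). Lower single peaks also lay at the promoters of Egr1 (153, 148 and 155 CPM in PBL, 103 and 106 in LBL) and Egr3, zinc finger factors of the immediate early response, and 49.6 kb from Fos. The 1 higher peak lay 13.5 kb upstream of Klf4 (4.21 to 5.13 CPM in PBL, 10.4 and 11.2 in LBL). Maff alone of the 3 loci was called without LBL 3_4.

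Peaks beside the gene of miR-146a were lower too. NF-kB induces this microRNA, which represses IRAK1 and TRAF6 in the TLR4 pathway. The mature sequence is shown, from RefSeq at chr11:43374435-43374456 on the minus strand, with its seed (bases 2 to 8) in capitals.
mmu-miR-146a-5p: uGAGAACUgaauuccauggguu
A peak in an exon 10.6 kb upstream of the Mir146 start site (chr11:43385022-43385664) stood at 54.1, 60.1 and 68.9 CPM in PBL and 35.1 and 44.7 in LBL (-0.62 ± 0.16, adjusted p = 0.0157, edgeR). Here PBP was the highest group, at 87.5 and 87.9, so LBL lay further from PBP than PBL did. A peak 5570 bp downstream (chr11:43368309-43368891) had 15.5 to 29.3 CPM in PBL and 11.7 and 14.2 in LBL (-0.90 ± 0.25), again under PBP at 31.7 and 33.2.

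Several genes held more than 1 called peak. Called peaks lay within 50 kb of 519 genes, and 6 of these had 3 or more. All 3 called peaks of Pde4b, a cyclic AMP phosphodiesterase induced by LPS, were lower and lay 18050 to 35087 bp from the start site, the most open of them with 40.7 to 52.3 CPM in PBL and 27.4 and 27.9 in LBL. The 3 called of 4 peaks near 2310043L19Rik were lower as well. At Ifngr1, the interferon gamma receptor, all 3 called peaks were higher, at 0.93 to 1.25 on the log2 scale. Tnfrsf1b, the TNF receptor TNFR2, had 1 higher intron peak (0.80 ± 0.20) and 2 lower peaks (-0.88 ± 0.23 and -0.80 ± 0.23), and Rapgef5 had 2 higher and 1 lower. Over all 519 genes, 4 had called peaks in both directions.

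Antigen presentation and TGF-beta genes had few calls, with lower peaks among them. Of 19 antigen presentation loci 1 was called lower, against 0.473% of all loci. Of their 53 peaks 3 (5.66%) were called lower and 1 (1.89%) higher, against 0.935% and 0.748% of all peaks within 50 kb of a gene. The called locus was Cd40, the co-stimulatory receptor. Its promoter peak had 8.79 to 11.2 CPM in PBL and 2.03 and 3.25 in LBL (-1.91 ± 0.43, adjusted p = 0.00434, edgeR). Without either LBL library the Cd40 call was lost. Peaks of H2-Ab1, an MHC class II chain (-1.0 ± 0.25), and H2-K1, MHC class I (-0.55 ± 0.16), were lower, H2 genes being a family with near-identical copies, and a peak near Cd86 was higher (0.91 ± 0.26). Of 28 TGF-beta signalling loci 1 was called lower, against 0.473% of all loci, and of their 127 peaks 4 (3.15%) were called lower and none higher. The called locus was Skil, a co-repressor of SMAD proteins, at 280 to 294 CPM in PBL and 219 and 226 in LBL (-0.36 ± 0.09, adjusted p = 0.0142, edgeR). Peaks of Eng, Tgif1 and Lrrc32 were lower at -1.32, -1.18 and -1.48.

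Homeostatic genes lay on the other side. Of 39 tested loci 7 were called higher, with Mertk, Selplg, Crybb1, Siglech, Itgb5 and Cst3 among them, none lower, against 0.663% of all loci called higher. Of the 39, 33 were above 0, against 6677 of all 13729 loci, with a median of 0.17. Mertk encodes a receptor for the uptake of apoptotic cells. Its locus stood at 159, 175 and 145 CPM in PBL and 218 and 223 in LBL, within the 205 and 254 of PBP (0.47 ± 0.09, adjusted p = 0.00216, edgeR). Selplg, the ligand PSGL-1 of selectins, had 85.6 to 105 CPM in PBL and 126 and 138 in LBL, with 124 and 141 in PBP (0.49 ± 0.11, adjusted p = 0.00717, edgeR). Siglech, a sialic acid binding lectin, had 50.2 to 60.8 CPM in PBL and 79.8 and 81.0 in LBL, still under 113 and 140 in PBP (0.53 ± 0.14, adjusted p = 0.0285, edgeR). The direction of the 7 loci was the same in all alternatives, but the calls were not: 0 were called without either LBL library, 1 without PBL 4_5, 4 with the LBL libraries summed as 1, and 2 with TMM factors from peaks outside promoters. DESeq2 called 1 locus of the list and limma-trend 7.

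The homeostatic peaks that were called were 6 higher and 1 lower of 234, shares of 2.56% and 0.427%, against 0.748% and 0.935% of all peaks within 50 kb of a gene. The Crybb1 promoter (chr5:112255511-112255835) had 7.02, 10.2 and 12.5 CPM in PBL and 27.3 and 27.9 in LBL, with 25 and 35.4 in PBP (1.40 ± 0.24, adjusted p = 7.53e-05, edgeR). Crybb1 encodes a beta-crystallin expressed by microglia, and its LBL libraries overlapped PBP and lay above each PBL library. The Trem2 promoter over the window printed above, of a lipid-sensing receptor, had 27.1 to 32.3 CPM in PBL and 42.7 and 46.8 in LBL (0.64 ± 0.18, adjusted p = 0.0354, edgeR), a call lost in 14 of 22 alternatives. An intron peak of Itgb5 (0.91 ± 0.19) and a peak near Cst3 (0.91 ± 0.22) were higher, and the Lpcat2 promoter was lower (-0.75 ± 0.22). Among loci chosen by name, P2ry12 (-0.01 ± 0.09), Tmem119 (0.35 ± 0.13), Sall1 (0.20 ± 0.11), Gpr34 (0.56 ± 0.21) and Csf1r (0.11 ± 0.08) gave no call, nor did the scavenger receptor gene Cd36 (-0.01 ± 0.13).

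The higher sites with the smallest p were mostly outside the lists. The promoter of Vps35l, a subunit of the retriever complex of endosomal sorting, had 10.5, 9.25 and 7.33 CPM in PBL and 28.6 and 24.4 in LBL (1.58 ± 0.25, adjusted p = 1.43e-05, edgeR), above PBP at 16.6 and 18.3. A peak 242 kb from Sall1, its nearest start site (chr8:89286154-89286501), had 2.93 to 4.21 CPM in PBL and 13.0 and 14.2 in LBL (1.95 ± 0.34). Whether this site acts on Sall1 is not known, and the Sall1 locus as counted does not hold it. Other distal peaks were at chr10:100159736-100160838 (0.93 ± 0.15), chr2:160156536-160156771 (1.89 ± 0.34), chr2:117961976-117963354 (0.84 ± 0.16) and chr1:62608705-62609121 (1.51 ± 0.27). Peaks at Mycbp2 (1.37 ± 0.25), Mthfs (1.27 ± 0.24) and the Abhd12 promoter (0.75 ± 0.14), a lysophospholipid hydrolase gene, complete the 10, named by their nearest gene. DESeq2 gave a value for 18 of the 20 peaks named by smallest p. It called 3 peaks higher in all, at Vps35l, Crybb1 and chr10:100159736-100160838. Of the 20 peaks named by smallest p, 20 were called with the LBL libraries summed, 18 without LBL 1_2, 18 without LBL 3_4 and 13 with DESeq2.

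Apob led the 10 higher loci with the smallest p. Apob, apolipoprotein B, had 61.3 to 68.0 CPM in PBL and 106 and 116 in LBL (0.77 ± 0.13, adjusted p = 0.000199, edgeR), with PBP at 40.5 and 49.2. Soat1, the enzyme that esterifies cholesterol, had 95.2 to 110 CPM in PBL and 147 and 148 in LBL (0.51 ± 0.10, adjusted p = 0.0024, edgeR). It was the 1 locus called of 30 in the disease-associated or primed list, against 0.663% of all loci called higher. The Cst7 promoter of that list, of a cystatin, was the 1 lower peak whose groups overlapped, at 24.6, 36.1 and 39.2 CPM in PBL and 27.3 and 14.7 in LBL. Mertk was among the 10, and Rnase10, Pcp4, Dock10, Klhl6, Arhgap39, Abhd12 and C030013C21Rik completed them, at 0.41 to 0.78. The lower loci by the same rule were Maff, Abhd16b, Dusp2, Gucy2g, C1s2, Ehd1, 2310043L19Rik, Mt2, Zmynd15 and Wscd2, at -2.05 to -0.60. Ehd1, an endosomal recycling ATPase, had 180 to 195 CPM in PBL and 121 and 124 in LBL. Mt2, a metallothionein, had 68.9 to 75.1 CPM in PBL and 36.1 and 41.7 in LBL, against 22.6 and 27.2 in PBP.

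**Figure D4:**
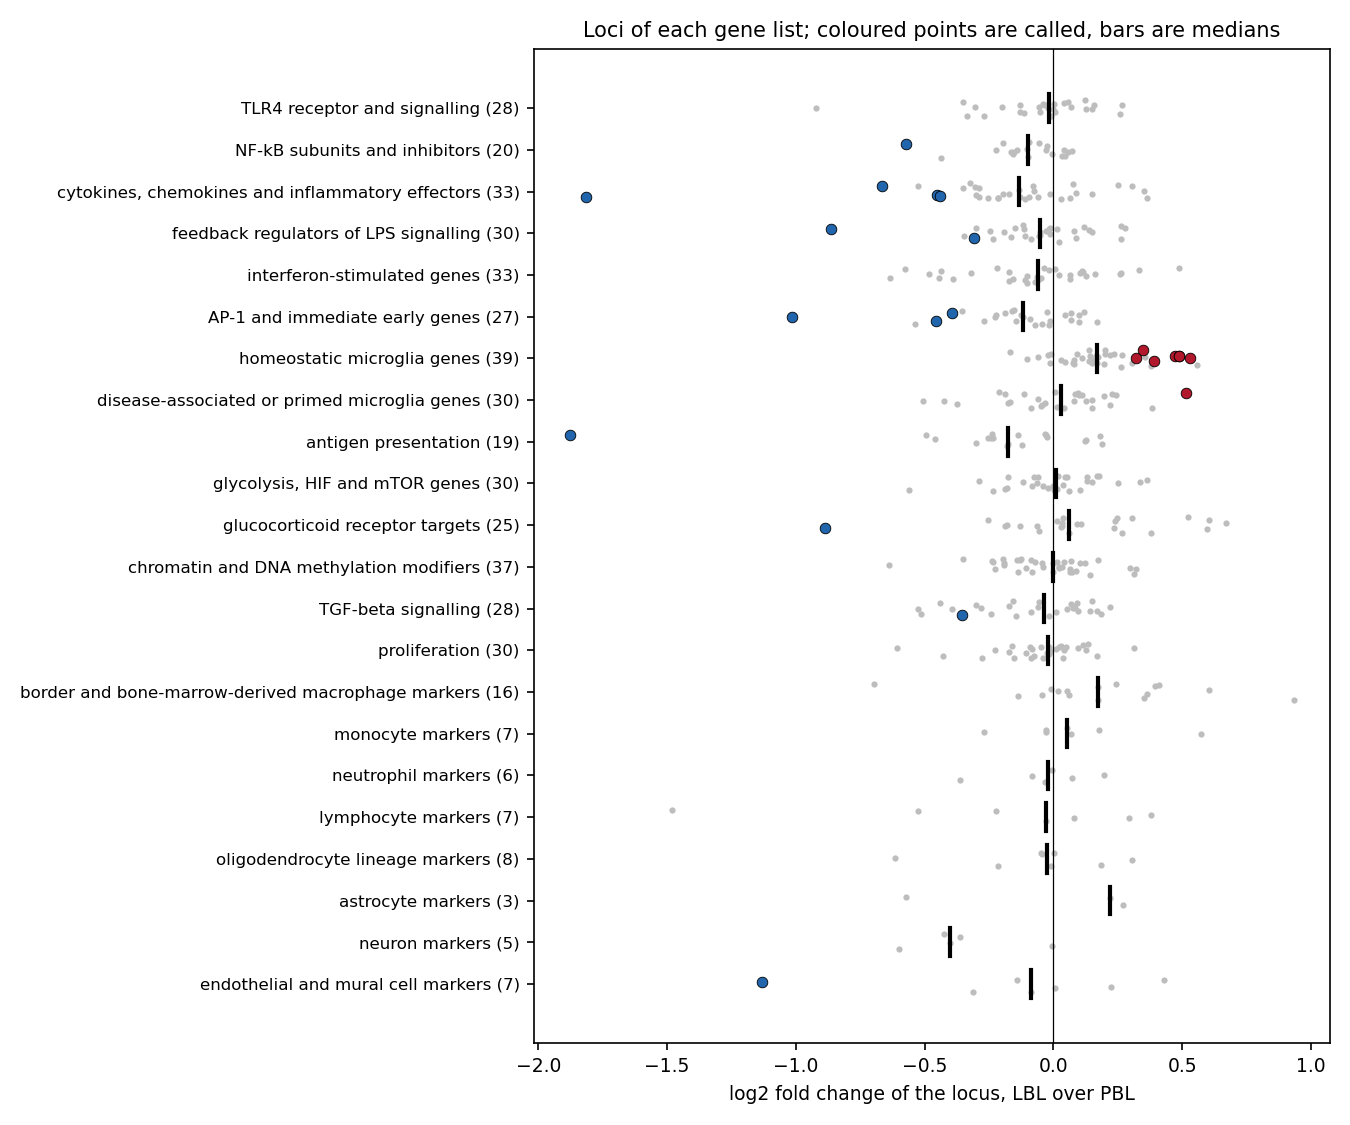
Log2 fold change of LBL over PBL (x) of each tested locus of the 22 gene lists (y, number of loci in brackets), with called loci in red (higher) or blue (lower), other loci in grey and the list median as a bar. The 7 called homeostatic loci lie right of 0, and the called loci of the NF-kB, cytokine, feedback and AP-1 lists lie left of it.

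Other pathways gave no or single calls. None of 33 interferon-stimulated loci was called in edgeR's test (median -0.06, with 5 lower and 1 higher at an unadjusted p under 0.05), with Ifit3 at 0.06 ± 0.21 and Irf7 at -0.44 ± 0.18, while promoter peaks of Zbp1 (-0.75 ± 0.19) and Gbp2 (-1.53 ± 0.44) were called lower. None of 30 glycolysis, HIF and mTOR loci, 37 chromatin modifier loci or 30 proliferation loci was called, with medians of 0.01, -0.00 and -0.02. At an unadjusted p under 0.05 the glycolysis list held 2 higher loci, the chromatin list 2 higher and 1 lower, and the proliferation list 2 lower. Of 25 glucocorticoid target loci 1, Mt2, was called lower, against 0.473% of all loci. Zbtb16 (0.52 ± 0.15, adjusted p = 0.0553, edgeR) and Fkbp5 (0.09 ± 0.08) were not called. In that list 18 of 25 loci were above 0, with 9 higher and 2 lower at an unadjusted p under 0.05, and fits on LBL and PBL alone, on the XDP libraries or without PL called 3 higher and 1 lower. Those fits also called 1 interferon-stimulated locus higher, and 1 chromatin modifier locus higher and 1 lower, with none of the glycolysis or proliferation lists. DESeq2, which called 14 loci in all, called no locus of the first 4 of these lists and 1 lower locus of the glucocorticoid list.

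The cell type label was checked on markers. Of 40 homeostatic microglia genes 39 had a tested locus, and Fcrls had none. In edgeR's test over the 13 libraries, no monocyte, neutrophil, lymphocyte, oligodendrocyte, astrocyte or neuron marker locus was called, and 1 astrocyte locus was called higher in fits on LBL and PBL alone, on the XDP libraries or without PL. Ly6c2, Ly6g, Cd3e, Gfap, Aqp4 and Olig2 had no tested locus, but other markers of their lists did. Neutrophil markers (6 of 14 tested) summed to 192 and 210 CPM in LBL and 182 to 195 in PBL. Lymphocyte markers (7 of 16) summed to 437 and 453 against 408 to 436. Oligodendrocyte markers (8 of 13) summed to 437 and 441 against 430 to 439. The summed border macrophage markers (16 of 20 tested, without Lyve1 and Pf4) were at 1065 and 1088 CPM in LBL and 954 to 987 in PBL, beside the homeostatic sum of 7519 and 7658 against 6566 to 6840. The median of the border macrophage list was 0.17, as for the homeostatic list, with 12 of 16 loci above 0, 5 higher and 1 lower at an unadjusted p under 0.05, and none called. The 3 fits just named called 2 of its loci higher, and 1 was called with fractional values rounded down or with a window of 10 kb. Of its peaks, the Dab2 promoter was called higher (19.7, 20.4 and 15 CPM in PBL, 30.5 and 34.5 in LBL, 0.86 ± 0.21, adjusted p = 0.0121, edgeR) and a peak 7786 bp from the Tgfbi start site lower (-1.03 ± 0.27). Monocyte markers (7 of 13) summed to 522 and 532 CPM in LBL and 488 to 509 in PBL, and astrocyte markers (3 of 11) to 348 and 376 against 286 to 325. Neuron markers (5 of 13) were at 76.7 and 83.3 in LBL and 95 to 101 in PBL. Endothelial markers (7 of 13) overlapped, with the Cldn5 locus called lower (-1.13 ± 0.25). Of their 20 peaks, an intron peak of Cdh5 was called higher (0.81 ± 0.22, adjusted p = 0.0297, edgeR) and a peak 43.3 kb from Cldn5 lower (-1.02 ± 0.28). These are 5% each, against 0.748% higher and 0.935% lower of all peaks within 50 kb of a gene. In fits on LBL and PBL alone, on the XDP libraries or without PL, 1 endothelial locus was called higher and 1 lower. The part of these markers in the changes above was not tested.

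Most of the lower sites were also more accessible after a first LPS injection than after PBS in microglia never depleted, though fewer passed the test there. PL against PP, which shares no library with LBL and PBL, called 7.46% of all tested peaks. In it 263 of the 348 lower peaks (75.6%) were above 0, against 50.8% of all tested peaks. Of the 348, 78 (22.4%) were called higher in PL against PP, where 4.77% of all peaks were. These 78 are 4.36% of the 1791 peaks so called, of which 22 (1.23%) were called higher in LBL. For the 365 higher peaks 51.8% were above 0 in PL against PP, and 8 (2.19%) were called lower there, beside 2.69% of all. Group medians over the 348 lower peaks were 12.3 CPM in PBP, 24.8 in PBL and 12.0 in LBL, and over the 365 higher peaks 16.1, 12.0 and 22.9. Both sets were chosen on PBL, so its distance from PBP is no separate result.

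In microglia never depleted, most of these sites lay on the same side. In LL against PL, the vehicle counterpart, 306 of the 348 lower peaks (87.9%) were below 0, against 48.8% of all tested peaks, with a median of -0.43. Of the 365 higher peaks 286 (78.4%) were above 0, against 51.2% of all, with a median of 0.22. The other 42 lower peaks were above 0 without a call, among them the promoters of Egr1 (0.15), Dusp1 (0.30) and Cd14 (0.10). By locus, 8 of 27 AP-1 and 13 of 30 feedback loci were below 0 in LL against PL. In LBL against PBL it was 20 of each list. For the NF-kB list 14 of 20 loci were below 0 in LL against PL, and for the cytokine list 22 of 33. LL against PL called 24 peaks itself (0.064%), 5 higher (0.0133%) and 19 lower (0.0506%), and 13 of the 19 were among the 348. The Crlf3 peak fell by 2.18 in LBL against PBL and by 2.2 in LL against PL (adjusted p = 0.0012, edgeR), and the Slc11a1 promoter by 1.51 and 1.2 (adjusted p = 0.0243, edgeR). The Tmbim1 promoter, of a Golgi and lysosomal membrane protein, had 49.0 to 60.9 CPM in PBL and 23.4 and 26.4 in LBL, and 39.7 and 45.3 in PL and 16.9 and 18 in LL. The others were peaks nearest to Il4i1, Mir146, Mir155hg, Tmsb10, Hc, Epha4, 4933430N04Rik, 3425401B19Rik, Irf2bpl and Gm17746. Of 5 loci called in LL against PL (0.0364%), 2 were higher (0.0146%) and 3 lower (0.0219%). Among them Mertk was higher in both comparisons (0.47 and 0.48), and Phlda1 (-0.50 and -0.49), Gem (-0.79 and -0.89) and Il4i1 (-1.11 and -1.37) were lower in both. PL and LL differ in sorter and day as well as in history. PL 1_2 and PL 3_4 were isolated on different days, unlike the libraries of any other group, and the PL pair was the widest (chi-square per degree of freedom 1.84). The part of the day in that spread was not tested. Without PL 1_2 the share of higher peaks above 0 was 64.7%, and without PL 3_4 the share of lower peaks below 0 was 78.7%.

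**Figure D5:**
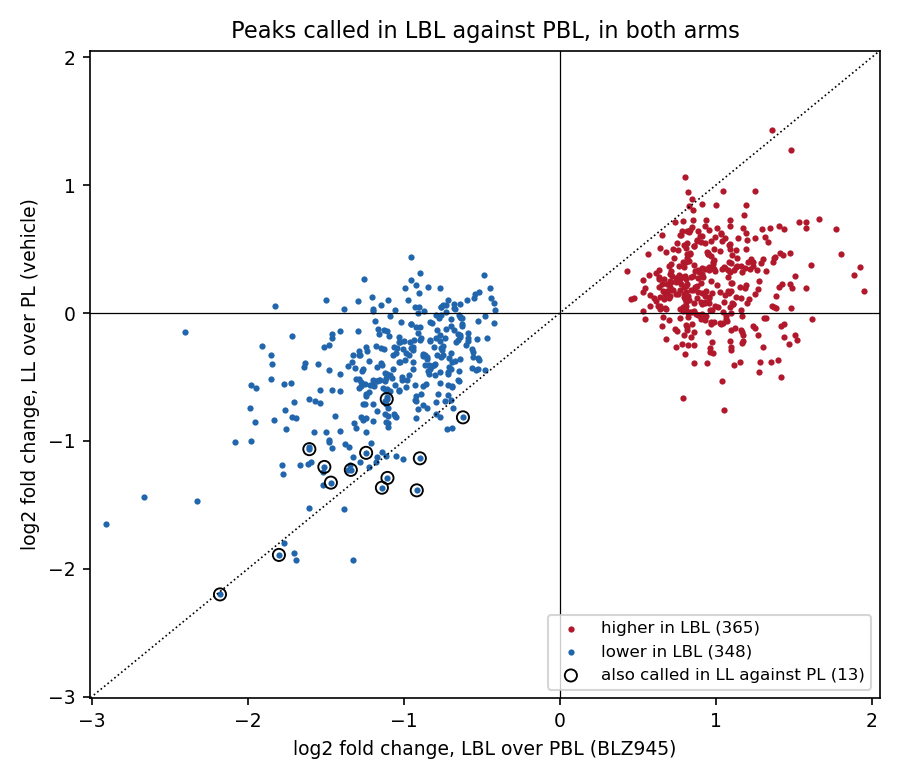
Log2 fold change of LBL over PBL after BLZ945 (x) against LL over PL after vehicle (y) for the 713 called peaks, higher in red and lower in blue, with the line of equal change dotted. Most blue points lie in the lower left, and 13 circled peaks, all lower, were also called in LL against PL.

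No peak was called for a difference between the arms. The test of (LBL over PBL) minus (LL over PL) gave 0 calls in edgeR's test with a smallest adjusted p of 0.167, 2596 peaks at an unadjusted p under 0.05, and 0 calls with DESeq2 or limma-trend (496 and 1899 at an unadjusted p under 0.05). Without PL 1_2 there were 71 calls, and without PL 3_4 there was 1. The smaller median changes in LL against PL are therefore not shown to differ from those in LBL against PBL, whose calls were selected on their own size.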

How the data were processed

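The deposited table holds values, taken to be expected counts, for 38620 shared peaks in 13 libraries, with each peak's class and nearest start site as the authors annotated them. Its values come in steps of 0.5, and how the authors counted is not recorded in the labels or the file. The submitters' processing notes list, without roles or order, build mm10 (GRCm38) and tools that include the aligner Bowtie2 2.2.6, the trimmer cutadapt 1.9.1, Picard 1.126, the peak caller MACS2 2.1.1 and the annotator ChIPseeker 1.38. Whether cut sites were shifted is not recorded.

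Values were rounded to whole counts, and 37516 peaks passed edgeR's filter (minimum count of 10). TMM factors and a quasi-likelihood model with the 6 group means over all 13 libraries (edgeR 4.0.16, R 4.3.3) gave each contrast, with Benjamini-Hochberg adjustment over all peaks. Loci are sums of peaks within 50 kb of their nearest start site. limma 3.58.1 and DESeq2 1.42.0 were alternatives. An exact permutation test of 2 against 3 libraries cannot go below p = 0.1 and was not used.

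Named by rule were the 10 called peaks and the 10 called loci with the smallest p in each direction (peaks not overlapping between groups, 1 per gene), the genes with most called peaks, the top loci of each gene list, and 23 loci chosen by name. The comparison, lists and rule were chosen with earlier results of these data known. Other named peaks were picked after their values were seen. Distal sequences were not used here.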

Additional observations from a re-analysis of the deposited data

How the results depend on the processing

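Against 713 called peaks, leaving out 1 PBL or LBL library in turn gave 88 to 598, and against 156 called loci 20 to 114. A fit without both PL libraries called 1131 peaks and 371 loci, and without PL 3_4 1128 peaks and 372 loci. DESeq2 called 17 peaks and 14 loci, or 19 and 32 on the LBL and PBL libraries alone. limma-trend called 263 peaks and 90 loci, and cyclic loess with limma-trend 269 peaks. The LBL libraries summed as 1 gave 445 peaks and 84 loci, and thinning to the smallest total 405 peaks. Fits of loci on LBL and PBL alone or on the XDP libraries called 358 and 367, and a window of 1 kb called 28, where Il12b reversed to 0.37. The labels do not say that samples with the same replicate number are paired. The correlation of their deviations was -0.00398 between LBL and PBL and at most 0.165 between any groups (PL and PBL). The replicate block called 472 peaks. The difference between the arms had 0 to 71 calls over the leave-out fits. The promoter share ranged from 8.61% to 15.2% among higher and from 22.4% to 32.1% among lower peaks. The share with the same sign in LL against PL ranged from 64.7% to 78.4% among higher and from 78.7% to 87.4% among lower peaks, and was 91.5% for lower peaks at an adjusted p under 0.01. Where these counts moved, the cause was not tested beyond the fewer samples or reads of the setting itself. TMM factors from peaks outside promoters moved the median of all peaks to -0.065. All 713 peaks kept their sign in DESeq2, in limma-trend and without either LBL library. With 2 LBL pools sorted on 1 day, neither animals nor days can be separated from the group, and counts under about 10 CPM rest on few reads.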
